A study of Drosophila melanogaster with 3 samples.

Results

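The 9 genes described here encode peroxins, the proteins that build peroxisomes, in Drosophila melanogaster: Pex2, Pex3, Pex5, Pex10, Pex11ab, Pex13, Pex14, Pex16 and Pex19. They were named by symbol, from 13968 protein-coding genes of the chromosome arms, with results on these peak lists already known. The values that chose them are the regions listed near their transcription start sites (TSSs) in the same lists. Counts and levels at these genes are therefore given as a description, with no test. Binding was mapped by ChIP-seq (sequencing of immunoprecipitated chromatin) with an anti-GFP antibody on a stable transgenic line, strain CG3838-GFP, in which the CG3838 protein (gene brwl) carries GFP (eGFP in the description field) at its C-terminal end. The antibody field of the labels names CG3838 itself. The samples form 1 group of 3 biological replicates of whole mixed-sex embryos aged 0 to 24 h, so all tissues and all stages of embryogenesis are mixed in each. No embryos lacking the tagged protein were analysed here, so binding of the protein and signal due to the antibody or to open chromatin cannot be told apart.

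Peroxisomes are single-membrane organelles that oxidise very long chain fatty acids and break down hydrogen peroxide. In yeast and mammals, Pex19 carries newly made membrane proteins to the organelle and Pex3 receives them there. In mammals, Pex16 acts with both in membrane formation. Matrix enzymes are carried by the receptor Pex5 to a docking complex of Pex13 and Pex14. The receptor is then marked with ubiquitin by RING-finger proteins that include Pex2 and Pex10, and is then pulled out of the membrane by ATPases such as Pex6. Proteins of the Pex11 family lengthen the membrane before the organelle divides. In Drosophila, mutants of Pex2 and Pex10 are known for defects in spermatocytes.

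A region counted for a gene when its summit lay within 500 bp of any annotated TSS of that gene. The lists used were the pooled list of 15592 regions, the thresholded list of its 2239 strongest regions, and the lists of replicates 1, 2 and 3 with 30000, 30000 and 21147 regions. Per the deposited README files, the pooled and replicate lists hold background regions as well as peaks. An entry outside the thresholded list may therefore be background. Signal is the value that the authors' caller gave each region, in units that no source used here defines. It was read only within a list, where rank 1 is the strongest region. The lists hold no read counts, so sequencing depth is unknown. The list of replicate 3 alone contains mitochondrial regions, 25 in number and all among its strongest 2239.

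The 9 genes fell into 3 tiers. Pex11ab, Pex13, Pex10, Pex14 and Pex16 had a thresholded promoter region, Pex3, Pex5 and Pex2 had only a weaker pooled region, and Pex19 had no promoter region in any list. Thus 5 of 9 members had a thresholded region, compared with 11.6% of all protein-coding genes, and 8 of 9 had a pooled region, compared with 38.3%. The 5 genes correspond to 4 separate regions, because Pex14 and Pex16 share 1. As the members were chosen from these lists, nothing is read from the gap between these shares.

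Stretches of 4 of the deposited regions are shown to give the sequence between divergent TSSs or upstream of a TSS that the regions cover. They were read from the RefSeq release 6 assembly (dm6) on the forward strand, 5' to 3', and leave out untranslated and coding sequence. The Pex14 and Pex16 stretch is the intergenic part of their shared region, chr3L:20778265-20778532, with the summit at base 57. The Pex3 stretch, chr3L:15144060-15144325, lies between Pex3 and its neighbour CG32147 and has the stronger summit at base 55. The Pex10 stretch, chr3L:1558562-1558656, belongs to an intron of the longer Pex10 transcript and ends short of the summit. The Pex2 stretch, chr3L:8338924-8339050, is the part upstream of the TSS and does not reach the summit. Capitals mark TATAAA or GAGAG on either strand.
Pex14 and Pex16: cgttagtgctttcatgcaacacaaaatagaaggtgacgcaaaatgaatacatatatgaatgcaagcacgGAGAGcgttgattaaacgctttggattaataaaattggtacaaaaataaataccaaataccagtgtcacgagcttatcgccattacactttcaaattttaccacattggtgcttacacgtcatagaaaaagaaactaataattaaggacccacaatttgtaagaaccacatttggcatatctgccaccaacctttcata
Pex3: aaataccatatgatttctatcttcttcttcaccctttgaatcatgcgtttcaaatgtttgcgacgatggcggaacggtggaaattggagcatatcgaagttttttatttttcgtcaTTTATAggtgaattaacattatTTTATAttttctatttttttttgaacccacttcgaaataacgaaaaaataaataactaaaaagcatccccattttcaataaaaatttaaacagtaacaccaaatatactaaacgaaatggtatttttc
Pex10: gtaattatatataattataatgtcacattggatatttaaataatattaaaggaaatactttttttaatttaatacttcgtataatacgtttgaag
Pex2: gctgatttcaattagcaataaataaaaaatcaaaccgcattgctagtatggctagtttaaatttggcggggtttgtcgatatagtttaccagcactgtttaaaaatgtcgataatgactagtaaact

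Pex11ab, the division and elongation factor, had by far the strongest region of the 9. The gene (FBgn0034058) lies on 2R from 15991367 to 15992375 on the reverse strand. Its region, from 15992364 to 15992645 with the summit at 15992510, had a pooled signal of 686.2 and ranked 33 of 15592. The next member, Pex13, had 214.8. Counted by gene, it took place 25 among the 5344 protein-coding genes with a pooled promoter region. In replicates 1, 2 and 3 the region ranked 45, 37 and 41, a mean of 41 ± 4 (SD, n = 3), with signals of 182.1, 270.5 and 236.9. All 3 replicates thus placed it close to the top. It was also narrow, at 282 bp in the pooled list and 119, 255 and 220 bp in the replicates, compared with usual widths of 424 bp in the pooled list and 404, 416 and 444 bp in the replicates. A second region of replicate 3 had a signal of 16.9 and ranked 12547.

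The docking complex genes Pex13 and Pex14 both had a thresholded region, at different levels. The Pex13 gene (FBgn0033812, 2R from 13228276 to 13230234, reverse strand) had a pooled signal of 214.8 at rank 488, with the summit at 13230475. Its ranks were 1132, 837 and 281 in replicates 1, 2 and 3, a mean of 750 ± 432 (SD, n = 3). Replicate 3 placed it highest, and replicate 1 split it into 2 regions with signals of 43.4 and 37.5. The Pex14 gene (FBgn0037020, 3L from 20778799 to 20780378, forward strand) and the membrane factor gene Pex16 (FBgn0037019, 3L from 20776766 to 20778264, reverse strand) start 535 bp apart and are transcribed away from each other. The region between them, whose sequence is given above, had a pooled signal of 122.3 at rank 1635. It ranked 1820 and 1704 in replicates 1 and 2 and 2954 in replicate 3, a mean of 2159 ± 691 (SD, n = 3), so in replicate 3 it was outside the strongest 2239. Its summit lay 57 bp upstream of the Pex16 TSS but 478 bp upstream of that of Pex14. Pex14 therefore counts only by the width of the window, and with a window of 250 bp it had no region, which left 4 of 9 members beside 9.29% of all protein-coding genes.

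Among the genes of the ubiquitin ligase, Pex10 and Pex2 differed in tier. The Pex10 gene (FBgn0035233, 3L from 1558228 to 1559863, forward strand) had a pooled signal of 163.4 at rank 917. The ranks were 813, 1682 and 773 in replicates 1, 2 and 3, a mean of 1089 ± 514 (SD, n = 3), all within the strongest 2239. Its summit at 1558679 was 103 bp upstream of the second of its 2 TSSs and 451 bp downstream of the first, within the 5' untranslated region of the longer transcript. The Pex2 gene (FBgn0035876, 3L from 8339051 to 8340276, forward strand) had a pooled signal of 51.8 at rank 8473, below the pooled median of 53.7. It had no promoter region in replicate 1, where the nearest summit was 722 bp away, and ranked 12684 and 8839 in replicates 2 and 3. The Pex2 summit lay 85 bp downstream of the TSS, in the 5' untranslated region.

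The genes of the receptor Pex5 and of the membrane protein receptor Pex3 had regions under the threshold that every replicate listed. The Pex3 gene (FBgn0036484, 3L from 15144355 to 15146379, forward strand) carried 2 pooled regions, with signals of 82.0 and 66.1 at ranks 3395 and 5058 and summits 241 and 36 bp upstream of the TSS. The stronger summit lay in an exon of the non-coding gene asRNA:CR45397. Its ranks in replicates 1, 2 and 3 were 7528, 3125 and 4366, a mean of 5006 ± 2270 (SD, n = 3). The Pex5 gene (FBgn0023516, X from 1866832 to 1869061, reverse strand) had a pooled signal of 58.6 at rank 6464, with the summit 277 bp downstream of the nearer of its 2 TSSs, inside a coding exon. Ranks of 5830, 7005 and 11201 gave a mean of 8012 ± 2824 (SD, n = 3). Measured from its outermost TSS, 535 bp from the summit, Pex5 had no pooled promoter region, which left 7 of 9 members beside 35.2% of all protein-coding genes.

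Pex19, the carrier of membrane proteins, had no promoter region. The gene (FBgn0032407) lies on 2L from 12091822 to 12095250 on the forward strand and has 2 annotated TSSs. The nearest summits were 2747 bp away in the pooled list (signal 53.4) and 549, 5953 and 2745 bp away in replicates 1, 2 and 3. That of replicate 1, with a signal of 17.2 at rank 10777, thus lay just outside the window. The lists alone cannot show whether weaker signal was present there. In the plot of ranks by list Pex19 is the empty row among the members.

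**Figure D1:**
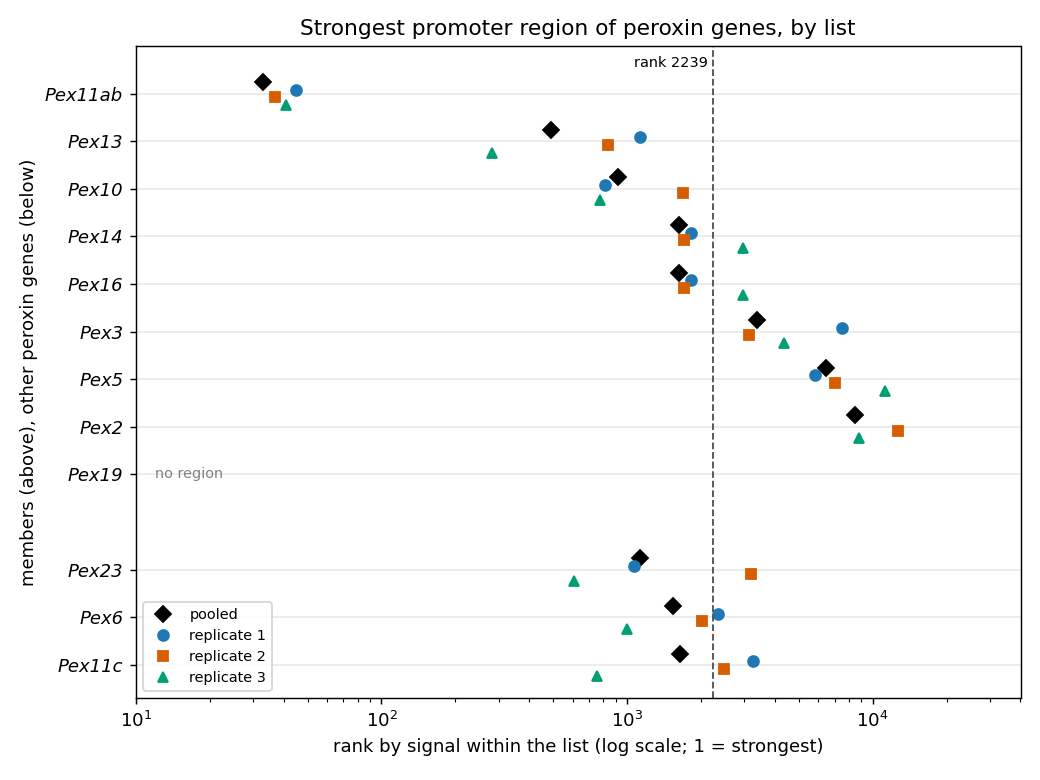
Rank by signal (log scale) of the strongest promoter region of peroxin genes in the pooled list and in the 3 replicate lists, with members above and, below, the other peroxin genes that have a thresholded region; the dashed line is the length of the thresholded list, 2239. Pex11ab sits between ranks 33 and 45 in the 4 lists, and Pex14 and Pex16 cross the line in replicate 3 only.

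Within the thresholded list the members were spread widely. The signal at the line was 103.5, and the member closest inside was the Pex14 and Pex16 region at 122.3, while the closest outside was Pex3 at 82.0. The 1272 thresholded promoter regions had a median signal of 152.6, with quartiles at 121.8 and 214.3. Pex11ab and Pex13 lay above the upper quartile, Pex10 lay above the median, and the Pex14 and Pex16 region lay just above the lower quartile. The middle of the 9 members, counting Pex19 as lowest, was 122.3. The middle gene of all 13968 had no pooled promoter region. Nothing is read from this gap either, because the members were chosen from these lists.

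**Figure D2:**
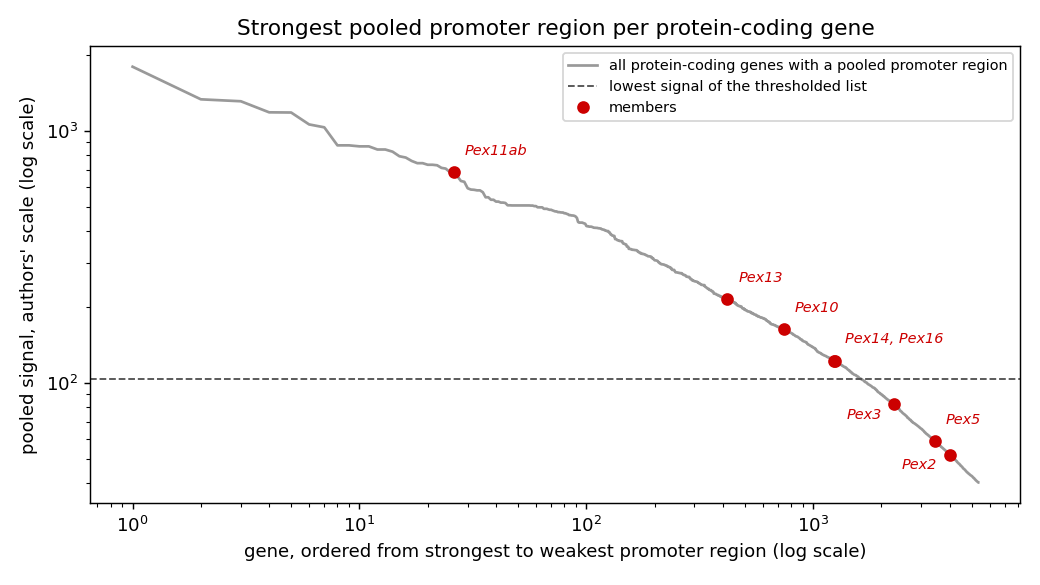
Pooled signal of the strongest promoter region of each of 5344 protein-coding genes, ordered from strongest to weakest (both axes log scale), with the 8 members that have one marked; the dashed line is the lowest signal of the thresholded list, 103.5. Pex11ab at 686.2 stands far to the left, and Pex3, Pex5 and Pex2 lie under the line.

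Agreement between replicates varied within the tiers. A region was listed at the promoter in every replicate for 7 of 9 members, against 27.7% of all protein-coding genes, and was lacking for Pex2 and Pex19. Restricted to the strongest 2239 of each replicate, 3 of 9 remained, Pex10, Pex11ab and Pex13, against 6.72%. Without replicate 3 that count was 5, beside 8.16%, since Pex14 and Pex16 were then included. By replicate, 5, 5 and 3 members had a region among the strongest 2239 of replicates 1, 2 and 3, beside 10.8%, 10.8% and 12.3% of all genes. Of the 4 thresholded member regions, 3 were matched in the strongest 2239 of all replicates by an overlap of at least 1 bp, compared with 56.8% of the 1272 thresholded promoter regions. When at least 50% of the region had to be covered, the count was 2, because the Pex11ab region of replicate 1 is only 119 bp wide. No share over all thresholded promoter regions is given at that overlap, so nothing is read from that count.

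Neighbouring genes shared nearly all of these regions. All 5 members with a thresholded region shared it with another gene whose TSS was also within 500 bp, as did 63.7% of the 1625 protein-coding genes with one. In the pooled list 7 of 8 did, Pex2 being the exception, beside 51.5% of 5344. The arrangement was divergent in each case, with the protein-coding partner on the opposite strand and transcribed away. This was judged from the member TSS nearest to the summit. From the other TSS of Pex10 and of Pex5, member and partner are transcribed toward each other. In the annotation, 7 of 9 members had a divergent protein-coding neighbour within 1000 bp, against 36.2% of all protein-coding genes. The members without one were Pex2 and Pex19. A thresholded region was present at 5 of the 7 with such a neighbour and at 0 of the 2 without, beside 21.3% and 6.14% of all protein-coding genes with and without one. As the members were chosen by their regions, neither comparison is independent of the lists, and nothing is read from either. Whether a region belongs to the Pex gene or to its partner cannot be told apart in these lists.

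The partners were of mixed or unknown function. CG8320, which RefSeq lists as uncharacterized, starts 33 bp from Pex11ab, and the summit lies 102 bp downstream of the CG8320 TSS, in its intron, and 135 bp upstream of that of Pex11ab. The partner of Pex13 is fsd (fates-shifted), whose TSS is 349 bp away and 108 bp from the summit, closer than the 241 bp to Pex13. Pex10 is paired with CG12099, whose TSS is 298 bp from the second Pex10 TSS, and the summit is 195 bp upstream of CG12099. Pex3 is paired with CG32147 at 296 bp, and the stronger pooled summit is 55 bp upstream of CG32147 and 241 bp upstream of Pex3. The non-coding gene asRNA:CR45397, on the same strand as Pex3, also has a TSS 313 bp from that summit. Pex5 is paired with CG14803 at 67 bp, measured from the Pex5 TSS nearer to the summit. The summit, 344 bp from the CG14803 TSS, lies on the Pex5 side. The strongest pooled summits of Pex11ab, Pex13 and Pex3 were thus nearer to the partner, and those of Pex10, Pex16 and Pex5 were nearer to the Pex gene. Some summits at Pex13 and Pex3 went the other way. The second pooled summit of Pex3 was 260 bp from CG32147, as against 36 bp from Pex3. The strongest summit of Pex3 in replicate 2 and that of Pex13 in replicate 1 were also nearer to the Pex gene, at 225 bp from CG32147 and 244 bp from fsd.

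**Figure D3:**
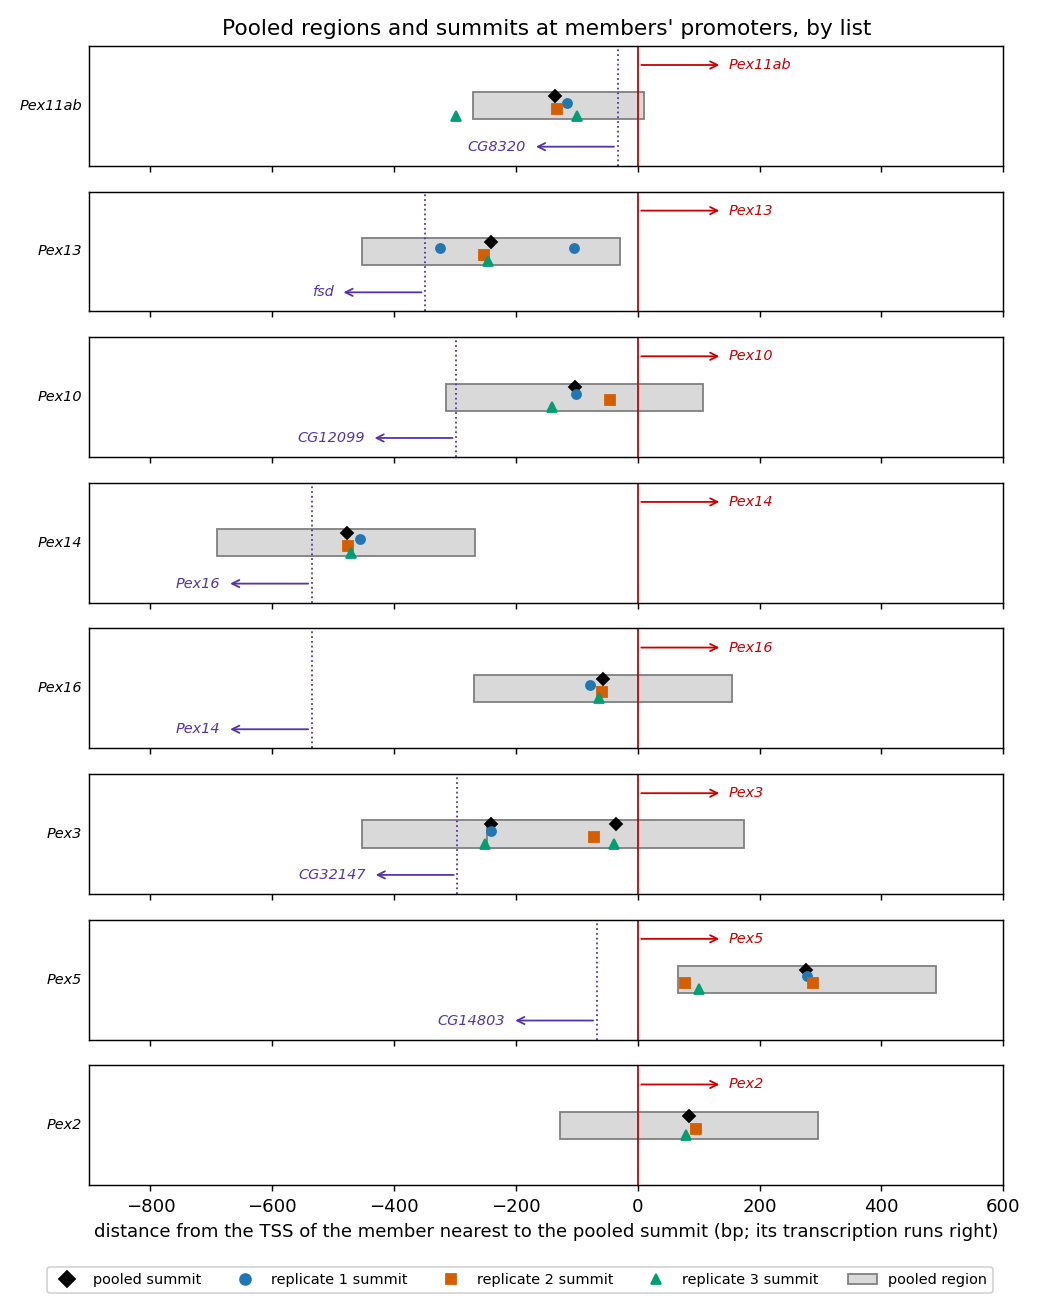
Positions relative to the TSS of each of 8 members nearest to its pooled summit (x axis in bp, transcription of the member to the right): grey bars are pooled regions, symbols are summits of each list, and dotted lines with arrows are TSSs of the divergent protein-coding partner. Summits of Pex11ab, Pex13, Pex10, Pex14, Pex16 and Pex3 lie to the left of 0, between the 2 TSSs except at Pex11ab, and those of Pex5 and Pex2 lie to the right.

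Summit positions were tight for some members and loose for others. Relative to the TSS, with negative values upstream, the strongest summit of Pex16 lay at -79, -59 and -64 bp in replicates 1, 2 and 3, a mean of -67.3 ± 10.4 bp (SD, n = 3). Pex11ab had -116, -133 and -99 bp, a mean of -116 ± 17 bp. Pex10 had -102, -45 and -140 bp, a mean of -95.7 ± 47.8 bp. At Pex13 the strongest summits were at -105, -253 and -245 bp, and replicate 1 had a second summit at -324 bp. At Pex3 they were -241, -71 and -250 bp, with replicate 2 listing a single summit between the positions of the 2 pooled ones. Over the 1272 thresholded promoter regions, the median position relative to the nearest TSS was -102 bp, and the quartiles were -187 and -19.8 bp. The member values are relative to the member's own TSS, so the measures differ. At Pex11ab, Pex13 and Pex3 the TSS of the partner was nearer to the strongest pooled summit.

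Base composition and short motifs were examined in windows reaching 100 bp to each side of the strongest pooled summit of each of the 8 members, which makes 7 windows. GC content was 24.9% at Pex13, 29.9% at Pex2, 32.8% at Pex10, 33.8% at Pex3, 34.3% at Pex11ab and 38.3% at the Pex14 and Pex16 region. Thresholded promoter windows had a median of 35.3%, with quartiles at 30.8% and 40.8%. Pex13 and Pex2 lay below the lower quartile, Pex10, Pex3 and Pex11ab between it and the median, and the Pex14 and Pex16 region above the median. Pex5, whose summit is in coding sequence, stood apart at 57.7%. Pex2, Pex3 and Pex5 have no thresholded region. Over all pooled promoter windows the median GC content was 38.3%, with quartiles at 32.3% and 45.8%. Both strands were searched for 7 motifs. The DNA replication-related element TATCGATA and the Motif 1 core GGTCACACT were in 0 of the 7 windows, and were in 6.68% and 2.91% of thresholded promoter windows of the same length. The E-box CANNTG was in 5 of 7 windows, beside 59.7%. Its variants, which CANNTG also matches, were in 1 window each, CAGCTG at Pex10 (11.4% of thresholded promoter windows) and CACGTG at Pex2 (2.67%). TATAAA was in the Pex2 and Pex3 windows, beside 37.7% of thresholded and 30.9% of pooled promoter windows. GAGAG was only in the window of Pex14 and Pex16, beside 22.8% and 24.0%. The GAGAG begins at base 70 of the printed stretch, whose summit is at base 57, and the 2 TATAAA matches at Pex3 begin at bases 117 and 139, on the reverse strand. The match at Pex2 falls outside the printed stretch. The windows of the 2 strongest regions, those of Pex11ab and Pex13, held none of the 7 motifs. With 200 bp to each side CANNTG was in all 7 windows. No share over all promoter windows is given at that length, so nothing is read from that count.

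The other 6 peroxin genes of the annotation were examined in the same way. Of these, Pex6, Pex11c and Pex23 had a thresholded region, beside 11.6% of all genes, which makes 8 of the 15 peroxin genes in all. Pex6, an export ATPase gene, had a pooled signal of 126.1, Pex11c 122.1 and Pex23 148.0. In each case the region was shared with a divergent partner, namely Taf5, wda and SCCRO4. Pex7, which encodes a receptor for matrix enzymes, had only a region in replicate 1, at rank 22906. None of the 6 had a region among the strongest 2239 of every replicate, beside 6.72%. Replicate 3 placed 3 of these genes highest, with ranks of 755, 1000 and 608 in replicate 3 for Pex11c, Pex6 and Pex23, whereas the Pex14 and Pex16 region was weakest in replicate 3.

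Peroxisomal enzymes, membrane transporters and division factors, 23 matched genes, were also examined. A thresholded region was found at 2 of 23, Lon and ScpX, beside 11.6% of all genes. Lon, which encodes a protease found in mitochondria, had a signal of 406.4 shared with PIG-F. Its place on the list was set by symbol, and no role in fly peroxisomes was examined here. ScpX, a thiolase of the sterol carrier protein family, had 175.3 shared with CG17597. A further 9 had pooled regions only, so 11 of 23 had a pooled region, beside 38.3% of all genes. The highest of these were at Hacl (89.9), which encodes a 2-hydroxyacyl-CoA lyase, Idh (87.2), an isocitrate dehydrogenase, and Gnpat (85.0), an enzyme of ether lipid synthesis. Cat, the catalase gene, had 72.0, Acox3 and Mfe2, of beta-oxidation, had 68.4 and 68.3, and the transporter gene Abcd3 had 58.2. Acox57D-d (48.0) and bgm (41.8) were lowest. The other 12 had no pooled promoter region.

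**Figure D4:**
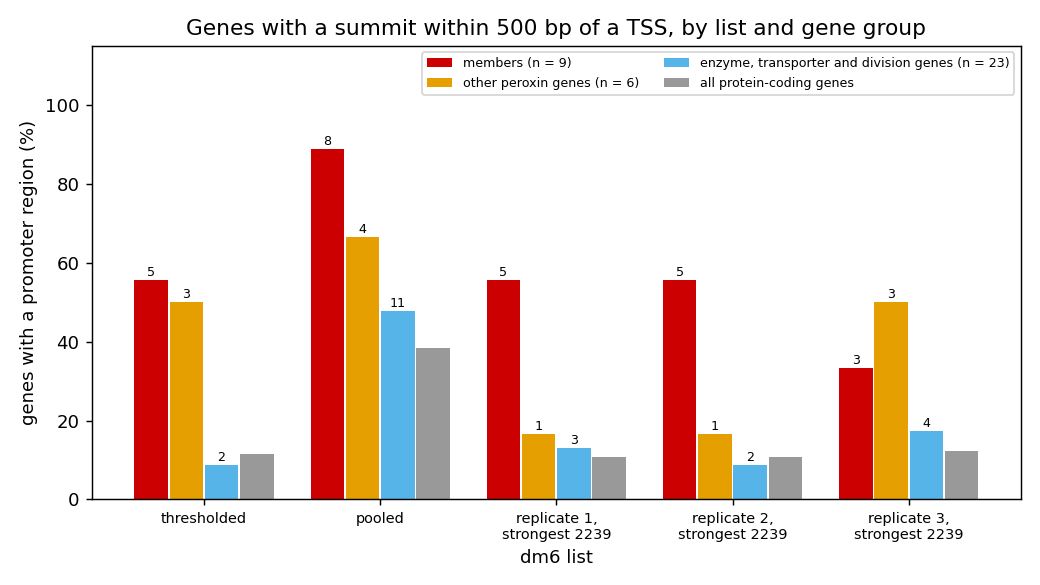
Percent of genes with a summit within 500 bp of a TSS (y axis) in the thresholded list, the pooled list and the strongest 2239 regions of each replicate, for the 9 members, 6 other peroxin genes, 23 enzyme, transporter and division genes and all protein-coding genes; numbers over bars are gene counts. Members reach 5 of 9 in the thresholded list beside 11.6% of all genes, and 3 of 9 in replicate 3 beside 12.3%.

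Genes with a pattern most like that of Pex11ab were sought among the 3729 protein-coding genes with a promoter region in the pooled list and all 3 replicate lists. Likeness was the largest difference in rank, as a percent of the list, over these 4 lists, and genes that share a region with Pex11ab, such as CG8320, were left out. Of the rest, the nearest were CG18549, which differed by at most 0.0233 percentage points with ranks of 32, 46, 30 and 43 in the pooled list and replicates 1, 2 and 3, then larp, an RNA-binding protein gene, at 0.0426, and CG9147 at 0.0449.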

How the data were processed

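Regions from 3 biological replicates were analysed. Per the deposited README files, the authors called peaks and background regions on each replicate and on the pooled replicates against 1 control, and derived the thresholded list by the irreproducible discovery rate. The aligner, caller, threshold and signal scale were not given in the sources used here. The signal values deposited by the authors served for ranks and descriptions inside each list. The thresholded list is exactly the 2239 strongest pooled regions. Coordinates are 1-based dm6 (Ensembl release 115 annotation), and all regions on the arms end within the arm lengths of the RefSeq release 6 sequence. The dm3 lists were not used here.

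Summits were assigned to all TSSs within 500 bp with Python 3.11.15 and pandas 2.3.3, and the assignment was checked on simulated data. Every tool setting was applied to all 13968 genes, and no test was run, because members and lists were chosen with earlier results of these data known. Named are all members, their partners, matched genes of the 2 further lists with a thresholded or pooled region, Pex7, and the 3 genes most like the strongest member. Of 26 enzyme, transporter and division symbols, 22 matched by symbol, 1 by synonym and 3 not at all, and of 7 other peroxin symbols 1 did not match. Of the 6 that matched, 2 are counted but not reported here by name. Alternatives were windows of 250 and 1000 bp, whole regions, the outermost TSS, stricter cut-offs of 1000 and 500 regions, and leaving out each replicate.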

Additional observations from a re-analysis of the deposited data

How the results depend on the processing

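The count of 5 members with a thresholded region was 4 or 5 with other windows, whole regions or the outermost TSS. It was 3 among the strongest 1000 regions (5.79% of all protein-coding genes) and 2 among the strongest 500 (3.05%). It was 3, 3 and 5 (3 to 5) without replicates 1, 2 and 3 in turn, when regions had to be matched in both remaining replicates (7.67%, 7.74% and 7.93% of all genes). The pooled count of 8 was 3 and 2 under the same 2 cut-offs (5.79% and 3.05%) and 3 to 5 without a replicate (7.86% to 8.22%), both of which reduce the list by construction. The count of 7 in every replicate list was 4 with a 250 bp window (18.3%), and 1 among the strongest 1000 (3.3%) or 500 (1.88%). With the outermost TSS it was 5 (24% of all genes), without Pex5 and Pex10. The count of 3 in the strongest 2239 of every replicate was 1 under both cut-offs (3.3% and 1.88%) and 3 to 5 without a replicate (7.81% to 8.16%), the 5 being without replicate 3. That count was 2 with a 250 bp window (5%), without Pex13, and 2 with the outermost TSS (5.73%), without Pex10. For other peroxin genes the count of 3 was 0 under both cut-offs and 1, 1 and 0 (0 to 1) without replicates 1, 2 and 3, and for enzyme genes the count of 2 was 1 among the strongest 500. With a 250 bp window 6 members had a pooled region, beside 29.9% of all protein-coding genes. Sharing with a partner was found for 4 of these 6, compared with 7 of 8. No share over all genes is given for sharing at that window, so nothing is read from the change.

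Rank as a percent of the pooled list was larger when taken among promoter regions only, where fewer regions are ranked. It was 67.0% at Pex2 (compared with 54.3%), 32.4% at Pex3 (21.8%, and 32.4% also for the summit nearest to the TSS), 9.68% at Pex10 (5.88%), 0.400% at Pex11ab (0.212%), 5.47% at Pex13 (3.13%), and 16.4% at Pex14 and Pex16 (10.5%). In windows reaching 50 bp to each side CANNTG was in 3 windows, TATAAA in 1 and CAGCTG in 0, and with 200 bp to each side CAGCTG and GAGAG were in 4 each and CANNTG in 7. No shares over all promoter windows are given at these lengths, so these counts describe the member windows only. No paired analysis was possible because the samples form 1 group. Depth is unknown, so a member without a region may have signal below what the lists record.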

Other observations

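The peroxin genes Pex6 and Pex11c stood beside genes of a general transcription factor and of a coactivator complex. This pattern was chosen after their values were seen and was not tested. The divergent partner of Pex6 is Taf5, which encodes a subunit of the general transcription factor TFIID, with TSSs 301 bp apart. That of Pex11c is wda, a relative of Taf5 in the SAGA coactivator complex, at 278 bp. The shared regions had pooled signals of 126.1 and 122.1 at ranks 1540 and 1643.

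Both Pex11-family genes, the member Pex11ab (686.2) and the other peroxin gene Pex11c (122.1), had thresholded regions, beside 11.6% of all protein-coding genes. This pair was also chosen after its values were seen and was not tested. Pex11ab ranked 45, 37 and 41 in replicates 1, 2 and 3. Pex11c ranked 3244, 2486 and 755, so only replicate 3 placed it among the strongest 2239 regions.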
